A study of Mus musculus with 8 samples.

Results

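Mouse day 2 blastoids made from control cells were compared with the expanded potential stem cells (EPSC) they were grown from, 2 of the 8 RNA sequencing libraries of the series. A blastoid is a stem cell aggregate that models the blastocyst, and EPSC are embryonic stem cells (ESC) adapted to a set of signalling inhibitors. Both libraries were picked by their labels. The library siNT_D2 held blastoids whose EPSC had been transfected with a non-targeting siRNA (siNT) using DharmaFECT1 and seeded at 5 cells per AggreWell microwell. For the first 24 hours they were in a mix of 25% trophoblast stem cell basal medium, 25% N2B27 and 50% KSOM with rhFGF4 (12.5 ng/mL), heparin (0.5 ug/mL), CHIR99021 (3 uM) and Y-27632 (2 uM). They were then in the same base with FGF4, heparin and CHIR99021, with BMP4 (5 ng/mL) and A83-01 (0.5 uM) added, until harvest on day 2. The EPSC library held untreated cells on gelatin in 20% serum replacement with LIF, CHIR99021 (3 uM), PD0325901 (1 uM), JNK Inhibitor VIII (4 uM), SB203580 (10 uM), A-419259 (0.3 uM) and XAV939 (5 uM). The EPSC came from 1 ESC line, E14, over 5 passages, and the labels list no transfection for the EPSC library. Medium, transfection, aggregation and time therefore differ together between the libraries and cannot be told apart. There was 1 library per group, so no difference below has a replicate check, a p-value or an SD.

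Components of the media act on known pathways. CHIR99021, at 3 uM in the EPSC medium and in both blastoid media, inhibits GSK3. That kinase marks beta-catenin for destruction, so the inhibitor switches on Wnt target genes. XAV939, listed for the EPSC medium only, inhibits tankyrase and so stabilises Axin, which turns the same pathway down. PD0325901 inhibits MEK, which carries the FGF signal to ERK. LIF acts through STAT3 to hold naive pluripotency, BMP4 acts through SMAD1 and SMAD5 on the Id genes, and A83-01 blocks the receptors for Nodal, activin and TGF-beta. In the embryo, FGF4 made by the epiblast directs neighbouring cells to primitive endoderm, and Cdx2 and the keratins Krt8 and Krt18 mark the trophectoderm, the outer layer.

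The total count was 36959392 in siNT_D2 and 38187665 in EPSC, within the range of 24666260 to 40781415 over the 8 libraries. Levels are counts scaled to library size (CPM) after TMM scaling, in which 3 counts equal 0.0762 CPM in siNT_D2 and 0.0786 CPM in EPSC. Ratios are log2 values of siNT_D2 over EPSC with a prior count of 2. A single value in brackets after the levels is the log2 ratio, and a range is its 95% exact conditional interval, which covers counting error only. A gene was called higher or lower when it differed at least 2-fold, the interval left out a ratio of 1 and 1 of the libraries held 20 or more counts. Of 14496 genes with that many counts, 2107 (14.5%) were called higher and 1633 (11.3%) lower in siNT_D2, in all 25.8%, with a median log2 ratio of -0.04 and quartiles of -0.46 and 0.44. The shares of 14.5% higher and 11.3% lower are the background for every list count of this pair below. At least 4-fold differences numbered 1022 higher and 587 lower, and at least 16-fold differences 231 higher and 101 lower. Of the called genes, 877 higher and 469 lower ones had under 100 counts in both libraries.

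The other library of each stage, day 2 blastoids with an siRNA against Nr1h2 (siNr1h2_D2) and EPSC given T0901317 (T09), an agonist of the liver X receptors, forms a pair that shares no library with the main one. That pair also differs by the agonist and the target of the siRNA, so it is not a replicate. It had 14.8% of 14029 genes higher and 10.7% lower. The pairs shared 1513 higher genes, which were 71.8% of those of siNT_D2 over EPSC and 73.0% of the other pair's, and 1078 lower genes (66.0% and 72%). They called 10 genes higher in the main pair and lower in the other, and 9 the opposite way. Within a stage far fewer genes were called: 3.66% of 14127 for siNr1h2_D2 over siNT_D2 and 4.19% of 13632 for T09-treated EPSC over EPSC.

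**Figure D1:**
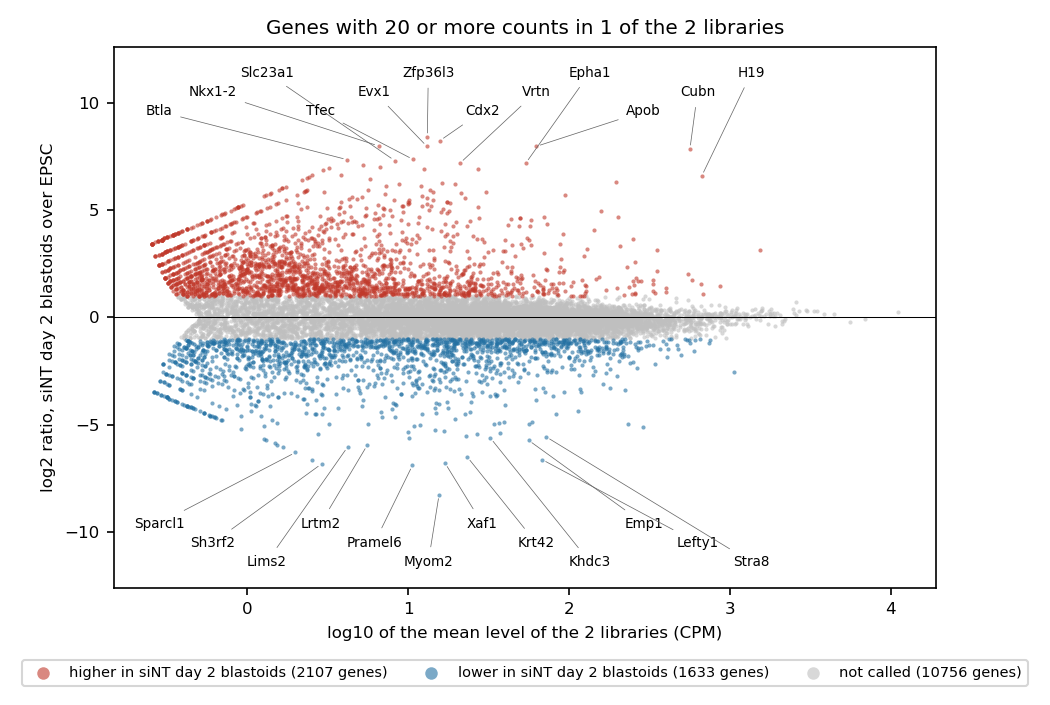
Log2 ratio of siNT day 2 blastoids over EPSC (vertical axis) against the log10 of the mean level in CPM of the 2 libraries (horizontal axis), with 1 point per gene for 14496 genes. Red points were called higher (2107), blue points lower (1633) and grey points neither. The labels name the 12 genes in each direction whose counting interval lay furthest from 0, with predicted and unnamed genes left out.

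With predicted and unnamed genes left out, the 12 genes furthest above 0 had from 8.36 to 1325 CPM in siNT_D2 and at most 13.7 CPM in EPSC. Cubn, which encodes the endocytic receptor cubilin of the visceral endoderm, was at 1125 CPM in siNT_D2 and 4.87 CPM in EPSC, a log2 ratio of 7.84 (7.64 to 8.07). Apob, the core protein of lipoproteins made by that tissue, was at 124.8 CPM against 0.445 CPM in EPSC (7.97). Cdx2, the trophectoderm and posterior embryo homeobox factor, was at 31.5 CPM in siNT_D2, against 0.0524 CPM, or 2 counts, in EPSC, with a ratio of 8.24 (7.38 to 12.28). Evx1, a homeobox gene of the primitive streak, had 26.1 CPM against 0.0524 CPM, also 2 counts (7.97, 7.10 to 12.01). Zfp36l3, a rodent gene of the placenta and yolk sac, had 26.3 CPM in siNT_D2 and 1 count in EPSC (8.40, 7.49 to 15.28). Nkx1-2, a homeobox gene of the caudal embryo, had 515 counts in siNT_D2 and 0 in EPSC, at least 167-fold higher. H19, the imprinted long non-coding RNA, reached 1325 CPM against 13.7 CPM in EPSC (6.59). The other 5 were Epha1 and Vrtn (7.19 each), Tfec (7.36), Slc23a1 (7.31) and Btla, which had 329 counts against 0 and was at least 106-fold higher. Each of these 12 was also called higher in the other pair.

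The genes furthest below 0, picked in the same way, were ones EPSC expressed at 3.98 to 141.1 CPM. Lefty1, a secreted inhibitor and direct target of Nodal, was at 1.32 CPM in siNT_D2 and 134.6 CPM in EPSC, a log2 ratio of -6.62 (-7.09 to -6.28). Myom2, a muscle M-band protein gene, had 2 counts in siNT_D2 and 1187 in EPSC (-8.25, -12.30 to -7.40). Xaf1, an interferon-inducible gene, had 0.254 CPM against 33.6 CPM in EPSC (-6.78). Stra8, a retinoic acid target known from meiotic entry, had 2.95 CPM in siNT_D2 and 141.1 CPM in EPSC (-5.56). Pramel6 (-6.89), Khdc3 (-5.62), Krt42 (-6.50), Emp1 (-5.72), Lims2 (-6.03) and Lrtm2 (-5.95) followed. Sh3rf2 and Sparcl1 had 0 counts in siNT_D2 and 221 and 152 in EPSC, so they were at least 75.9-fold and 52.2-fold lower. All 12 were called lower in the other pair, where Sparcl1 had a log2 ratio of -1.10 (-2.71 to -0.02) and Sh3rf2 -3.12.

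Wnt target and feedback genes stood far higher in siNT_D2. Of 22 with enough counts, 17 were called higher (background 14.5%) and 2 lower (background 11.3%), with a median log2 ratio of 2.88. Axin2, the feedback scaffold of the destruction complex, was at 95.9 CPM in siNT_D2 and 3.85 CPM in EPSC (4.62, 4.40 to 4.89). Sp5, a direct target that damps the response, had 184 counts in siNT_D2 and 0 in EPSC, at least 59.5-fold higher. T, the brachyury factor of the primitive streak, had 10.1 CPM against 0.157 CPM (5.61), and the secreted inhibitor Dkk1 had 34.3 CPM against 0.759 CPM (5.40). Lef1, a partner of beta-catenin on DNA, had 53.1 CPM against 1.44 CPM (5.16), and Tnfrsf19 93.5 CPM against 9.90 CPM (3.23). The members called lower were Tcf7l1, the repressor form of TCF (46.2 CPM against 172 CPM in EPSC, -1.90), and Notum, which inactivates Wnt proteins (8.48 CPM against 32.2 CPM, -1.92). ESC, which are not in the pair, had 42.3 CPM of Axin2 and 9.40 CPM of Sp5, both above EPSC, and 1.14 CPM of Lef1, below EPSC.

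The beta-catenin partners of the TCF and LEF family bind DNA at CTTTGAT and close variants. In RefSeq promoters of build GRCm38.p6, from 250 bases before to 50 after each start, CTTTGAT on either strand was found in 2 of the 15 list members with a promoter in the table, Sp5 and Tnfrsf19, and in 4.29% of 27025 genes. Their upstream windows are shown because these 2 targets were called higher, with the match in capitals (for Tnfrsf19 it lies on the opposite strand). The Sp5 match starts 104 bases and the Tnfrsf19 match 202 bases before the start site. The Sp5 window is at chr2:70474759-70474885 on the plus strand and the Tnfrsf19 window at chr14:61038123-61038237 on the minus strand.
Sp5: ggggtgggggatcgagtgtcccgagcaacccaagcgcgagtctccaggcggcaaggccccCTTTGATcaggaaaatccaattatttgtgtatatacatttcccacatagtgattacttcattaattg
Tnfrsf19: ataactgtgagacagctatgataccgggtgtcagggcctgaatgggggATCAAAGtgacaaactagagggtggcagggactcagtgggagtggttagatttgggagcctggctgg
A match is a run of letters and not a shown binding site.

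Among 20 Wnt ligands and receptors, 11 were called higher and 3 lower, with a median of 1.08. The ligand genes Wnt5b (24.1 CPM against 0.419 CPM in EPSC, 5.68), Wnt8a (19.7 CPM against 0.445 CPM, 5.32), Wnt3 (6.38 CPM against 0.209 CPM, 4.62) and Wnt11 (3.96 CPM against 0.183 CPM, 4.10) led the list. Fzd5, a receptor gene, was the furthest below 0, at 30.1 CPM in siNT_D2 and 152 CPM in EPSC (-2.33).

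Of 23 targets of the FGF and ERK pathway, 9 were called higher, 6 lower and 8 neither (median 0.51). Dusp4, a phosphatase that switches ERK off, had 140.3 CPM in siNT_D2 and 6.73 CPM in EPSC (4.37, 4.20 to 4.57). Dusp6, of the same family, had 108.7 CPM against 32.4 CPM (1.75), and the inhibitor Spry4 had 153.2 CPM against 32.7 CPM (2.23). Myc was at 34.6 CPM against 8.40 CPM in EPSC (2.03). Fosl1, a Fos family gene, had 1.19 CPM in siNT_D2 and 3 counts in EPSC (3.26, 2.29 to 6.25). The lower members were Fos, Egr1, Fosb, Egr2, Ier2 and Ier3, genes known to answer within minutes to serum or growth factors. Fos had 0.711 CPM in siNT_D2 and 28.7 CPM in EPSC (-5.24), and Egr1 6.91 CPM against 72.2 CPM (-3.38). Their levels also differed widely among stem cell libraries: Egr1 was at 3.04 CPM in T09-treated EPSC, 0.362 CPM in ESC and 89.9 CPM in T09-treated ESC, and Fos at 1.26, 0.542 and 22.5 CPM in the same libraries. In the other pair Fos was at 0.71 and Egr1 at 1.33, on the opposite side of 0, while Dusp4 was at 4.47, Dusp6 at 1.43 and Spry4 at 1.40. Ier2 was at -1.01 in siNT_D2 over EPSC and at -1.11 in the other pair.

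Among 14 FGF ligand and receptor genes, 9 were called higher and 1 lower (median 1.43). Fgf5, the ligand that marks epiblast leaving the naive state, had 3.404 CPM in siNT_D2 and 3 counts in EPSC (4.73, 3.86 to 7.73). Klb, the co-receptor beta-klotho, had 752 counts in siNT_D2 and 67 in EPSC (3.41). The member called lower was Fgf4, the epiblast ligand, at 76.0 CPM in siNT_D2 and 284 CPM in EPSC (-1.90).

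BMP signals and targets were higher in siNT_D2, with 12 of 20 called higher and 1 lower (median 2.45). The median was 1.48 with no count minimum, 1.77 with a minimum of 100 counts and 1.71 with a prior count of 10. The Id genes, inhibitors of basic helix-loop-helix factors and direct SMAD targets, had large ratios. Id1 was at 306.4 CPM in siNT_D2 and 9.69 CPM in EPSC (4.98, 4.83 to 5.14), Id3 at 185.5 CPM against 3.51 CPM (5.70), and Id2 at 92.5 CPM against 4.82 CPM (4.25). Hand1, a trophoblast and mesoderm factor, had 232 counts against 0 and was at least 75.03-fold higher. The homeobox genes Msx1 (11.8 CPM against 0.445 CPM, 4.57) and Msx2 (18.1 CPM against 0.550 CPM, 4.91) were also called higher. Bmp4 itself was not called (15.9 CPM in siNT_D2, 21.0 CPM in EPSC, -0.40), and Bmp7 was lower (3.61 CPM against 13.96 CPM, -1.94).

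Nodal and TGF-beta genes leaned the other way, with 4 of 20 called higher and 8 lower (median -0.75). Beside Lefty1, its relative Lefty2 was at 3.43 CPM in siNT_D2 and 109.1 CPM in EPSC (-4.97), and Inhbb, an activin subunit gene, at 2.03 CPM against 65.9 CPM (-4.98). Nodal was not called, at 81.4 CPM in siNT_D2 and 75.5 CPM in EPSC (0.11, 0.04 to 0.18). Among those called higher were Fst, which encodes the activin-binding protein follistatin (16.9 CPM against 1.34 CPM, 3.62), and Eomes, an early trophoblast and streak factor (19.9 CPM against 3.69 CPM, 2.41).

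LIF and STAT3 pathway genes were lower, with 10 of 21 called lower and 1, Myc, higher (median -0.48). Socs3, the feedback inhibitor that STAT3 induces, was at 10.3 CPM in siNT_D2 and 64.5 CPM in EPSC (-2.65, -2.81 to -2.50). Stat3 itself was at 32.6 CPM against 105 CPM (-1.69), and Lifr, the receptor gene, at 49.9 CPM against 120 CPM (-1.26). Bcl3 (3.00 CPM against 46.4 CPM, -3.93) and Ly6a (0.788 CPM against 32.6 CPM, -5.28) had larger ratios. ESC, kept in serum with LIF, CHIR99021 and PD0325901 per the labels, had 100.5 CPM of Socs3 and 63.3 CPM of Bcl3.

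Retinoic acid genes moved in both directions, with 9 of 20 called higher and 6 lower (median 0.87, and 0.13 with a minimum of 100 counts). The degrading enzyme gene Cyp26a1 (5.16 CPM against 1.18 CPM in EPSC, 2.08) and the target Hoxb1 (1.98 CPM against 0.105 CPM, 3.70) were higher. Beside Stra8, lower members were Dhrs3, which turns retinal back into retinol (0.737 CPM against 15.0 CPM, -4.26), Tgm2 (1.78 CPM against 29.4 CPM, -4.01) and the receptor gene Rarb (0.254 CPM against 3.46 CPM, -3.52). Of 19 YAP and TEAD genes, which act in the Hippo pathway that sets inner from outer cells, 4 were higher and 2 lower (median 0.04), near the 14.5% and 11.3% of all tested genes, and in the other pair 5 were higher and 0 lower. Amot, which encodes the junction protein angiomotin, was at 385.8 CPM in siNT_D2 and 4.90 CPM in EPSC (6.29, 6.09 to 6.52), while Yap1 was at 185 CPM against 200 CPM (-0.11) and the targets Cyr61 (-1.78) and Ctgf (0.67) had opposite signs.

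**Figure D2:**
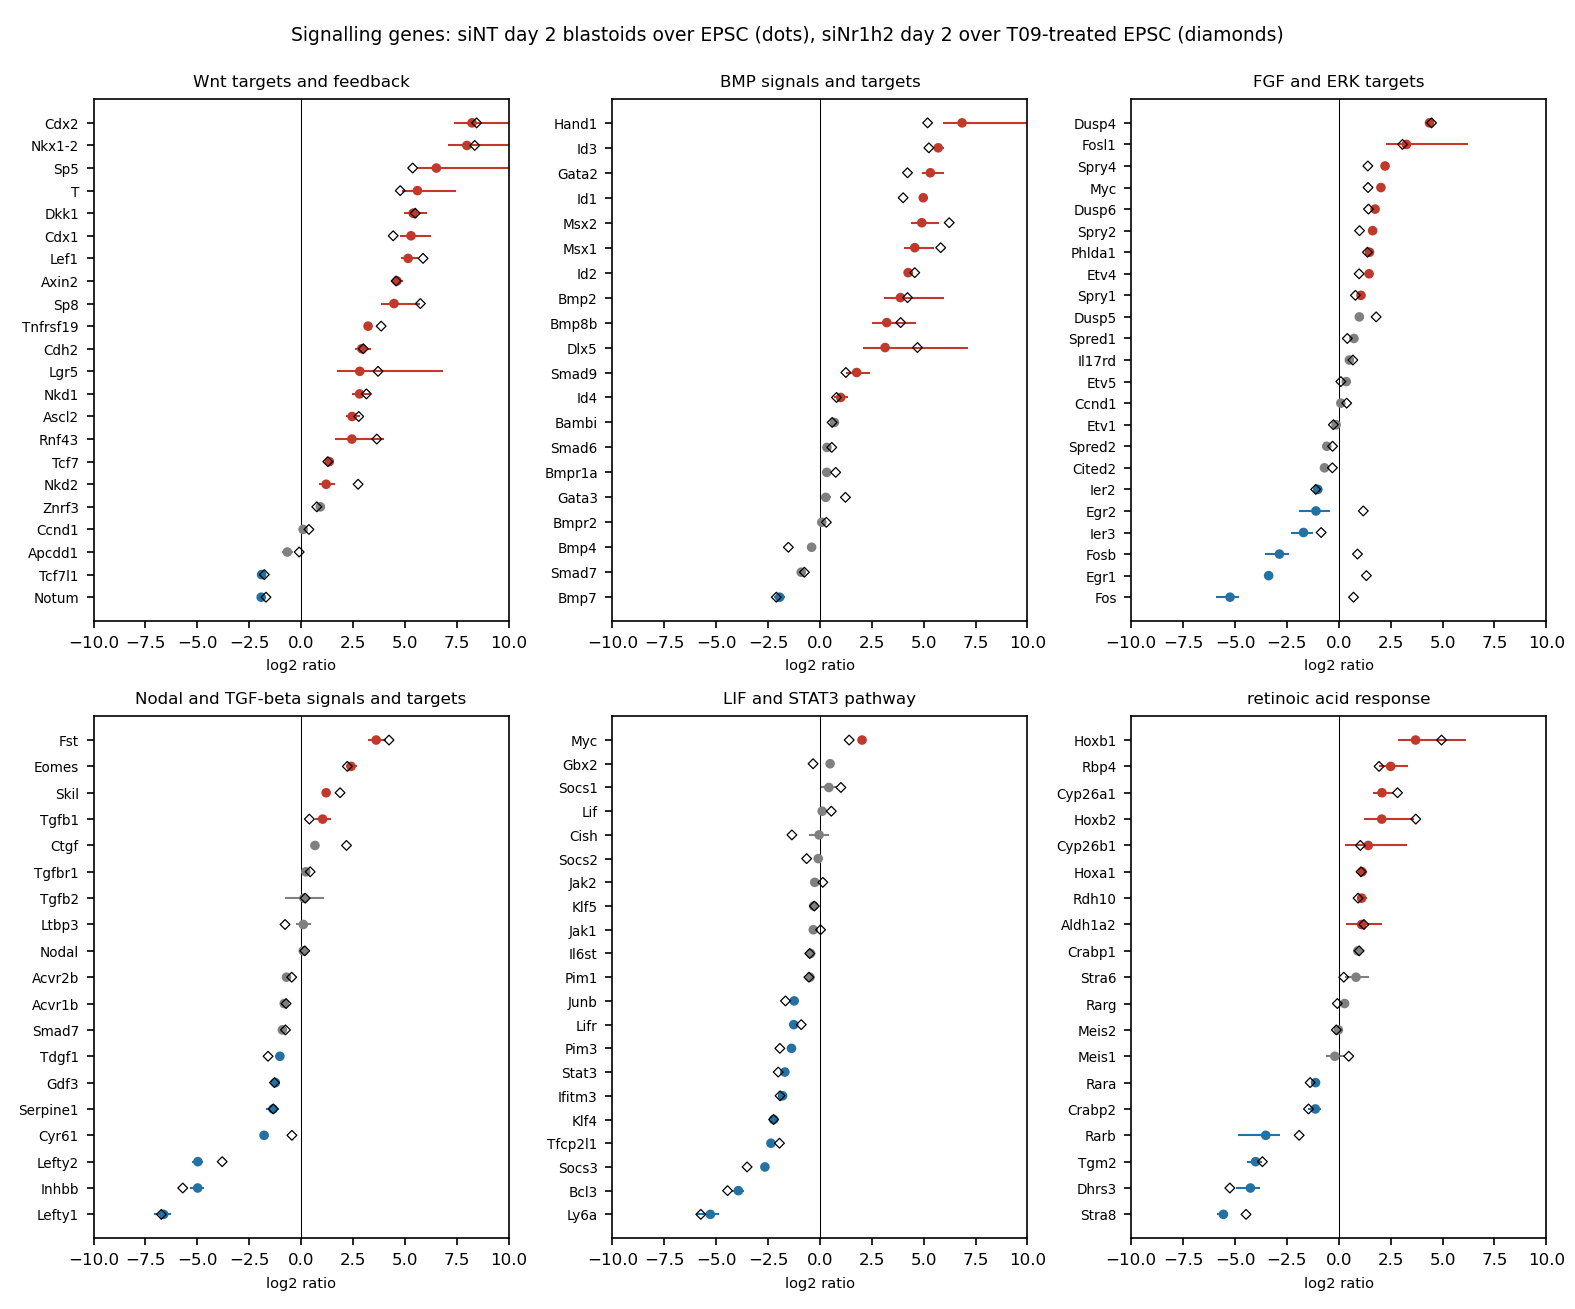
Log2 ratios of the members of 6 signalling lists with 20 or more counts that are reported here, 1 row per gene: dots are siNT day 2 blastoids over EPSC with bars for the 95% counting interval (drawn to 10 on the log2 axis), red called higher, blue lower, grey neither. Open diamonds are siNr1h2 day 2 blastoids over T09-treated EPSC, and they lie near the dots for most Wnt, BMP and LIF genes and on the other side of 0 for Fos (0.71) and Egr1 (1.33).

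Primitive endoderm transcription factors, which specify the layer facing the blastocyst cavity, were higher in siNT_D2: 11 of 17 were called higher and 2 lower (median 3.44). Sox17 was at 38.6 CPM in siNT_D2 and 0.471 CPM in EPSC (6.21, 5.69 to 7.11), Gata4 at 110 CPM against 5.58 CPM (4.28) and Gata6 at 92.8 CPM against 8.51 CPM (3.44). The receptor gene Pdgfra was at 111.5 CPM against 4.74 CPM (4.54), and Foxa2 at 14.05 CPM against 0.209 CPM (5.76). Over the 6 primitive endoderm markers Gata6, Gata4, Sox17, Sox7, Pdgfra and Foxa2, the summed level was 413.5 CPM in siNT_D2 and 22.9 CPM in EPSC. In bulk RNA, more cells of a type and more RNA per cell cannot be told apart, for these genes as for all others. Those called lower were Sall1 (106 CPM against 292 CPM, -1.45) and Gsc, with 2 counts in siNT_D2 and 64 in EPSC (-4.08, -8.12 to -3.13).

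Products of the extraembryonic endoderm followed the same direction, with 21 of 29 called higher and 3 lower (median 2.27). Cubilin works as a complex: its membrane partner Amn was at 54.0 CPM in siNT_D2 and 0.393 CPM in EPSC (6.93), the megalin gene Lrp2 at 877 CPM against 217 CPM (2.01), and the endocytic adaptor Dab2 at 388 CPM against 15.0 CPM (4.69). Apoa1 had 252 counts in siNT_D2 and 0 in EPSC, at least 81.5-fold higher. Basement membrane genes of this layer were higher by less, with Lamb1 at 439 CPM against 72.3 CPM (2.60), Col4a1 at 992 CPM against 338 CPM (1.55) and Lama1 at 357 CPM against 160 CPM (1.16). Nid1, which encodes a linker of the same membrane, was lower (47.8 CPM against 290 CPM, -2.60), as were the laminin chain gene Lamc1 (-1.03) and Lefty1 (-6.62), which is a member of this list too. Ttr, a plasma carrier of later visceral endoderm, had 7.39 CPM in siNT_D2 and 0.497 CPM in EPSC (3.76), and 174 to 176 CPM in the day 5 blastoids.

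Trophectoderm factors were mixed. Of 21, 11 were called higher and 2 lower (median 1.37). Beside Cdx2 and Hand1, Gata2 was at 35.6 CPM in siNT_D2 and 0.838 CPM in EPSC (5.32), and Cited1 at 23.7 CPM against 0.602 CPM (5.18). Gata3, which acts with Cdx2 in this lineage, was not called, at 6.96 CPM in siNT_D2 and 5.71 CPM in EPSC (0.28, 0.02 to 0.55), and it was called higher in the other pair (1.23, 0.92 to 1.58). Tfap2c, needed for the lineage, was also not called (46.4 CPM against 76.7 CPM, -0.72). Elf5, a factor of trophoblast stem cells, had 5 counts in siNT_D2 and 0 in EPSC, under the minimum. Sox21 (5.64 CPM against 29.4 CPM, -2.37) and Grhl3 (11.99 CPM against 44.6 CPM, -1.89) were lower. Over 9 trophectoderm markers the summed level was 265.5 CPM in siNT_D2 and 97.6 CPM in EPSC. Tfap2c alone held 76.7 CPM of the EPSC sum and 46.4 CPM of the siNT_D2 sum.

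Epithelial genes of the trophectoderm were mixed as well, with 13 of 30 called higher and 6 lower (median 0.54). The keratin genes Krt8 (71.1 CPM against 8.35 CPM in EPSC, 3.08) and Krt18 (53.02 CPM against 2.12 CPM, 4.61) were higher, as were the tight junction genes Cldn6 (83.3 CPM against 3.46 CPM, 4.57) and Cldn7 (12.02 CPM against 0.367 CPM, 4.85) and the splicing factor Esrp1 (28.2 CPM against 0.445 CPM, 5.83). Cdh1, the E-cadherin gene, was not called, with 20917 counts in siNT_D2 and 23324 in EPSC. Aqp3, a water channel of the trophectoderm, was lower, at 14.4 CPM in siNT_D2 and 448.4 CPM in EPSC (-4.95, -5.08 to -4.83). The desmosome gene Dsp (34.0 CPM against 181 CPM, -2.41) and the galectin gene Lgals3 (10.8 CPM against 50.4 CPM, -2.21) were lower too.

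Of 24 placental trophoblast genes in the table, 15 had enough counts, and of those 11 were called higher and 2 lower (median 2.60, and 0.00 with no count minimum). H19 and the growth genes Igf2 (20.5 CPM against 1.73 CPM in EPSC, 3.53) and Phlda2 (36.0 CPM against 1.86 CPM, 4.24) led, and the retrotransposon-derived Peg10 was at 2763 CPM against 315 CPM (3.13). The connexin gene Gjb5 was lower (4.95 CPM against 34.3 CPM, -2.78). Genes of differentiated trophoblast, Prl3d1, Tpbpa, Ctsq and Synb among them, had 0 counts in both libraries.

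Of 17 genes of the primitive streak and mesoderm, 14 were called higher and 2 lower (median 2.41). The lowest ratio in this list was -4.08, the value given above for Gsc. Cdx1 was at 19.5 CPM in siNT_D2 and 0.445 CPM in EPSC (5.30), and Cdx4 at 4.598 CPM against 3 counts (5.16, 4.30 to 8.16). Snai1, a repressor of E-cadherin, was called higher with 305 counts against 56. Members that come later in mesoderm had few or no counts: Mesp1 and Msgn1 had 2 counts each in siNT_D2 and 0 in EPSC, and Tbx6 had 19 against 16. ESC had 87.6 CPM of Cdx1, more than siNT_D2 or EPSC. Mixl1 was called higher here (1.55 CPM against 0.340 CPM, 2.03) and was at -0.17 in the other pair.

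**Figure D3:**
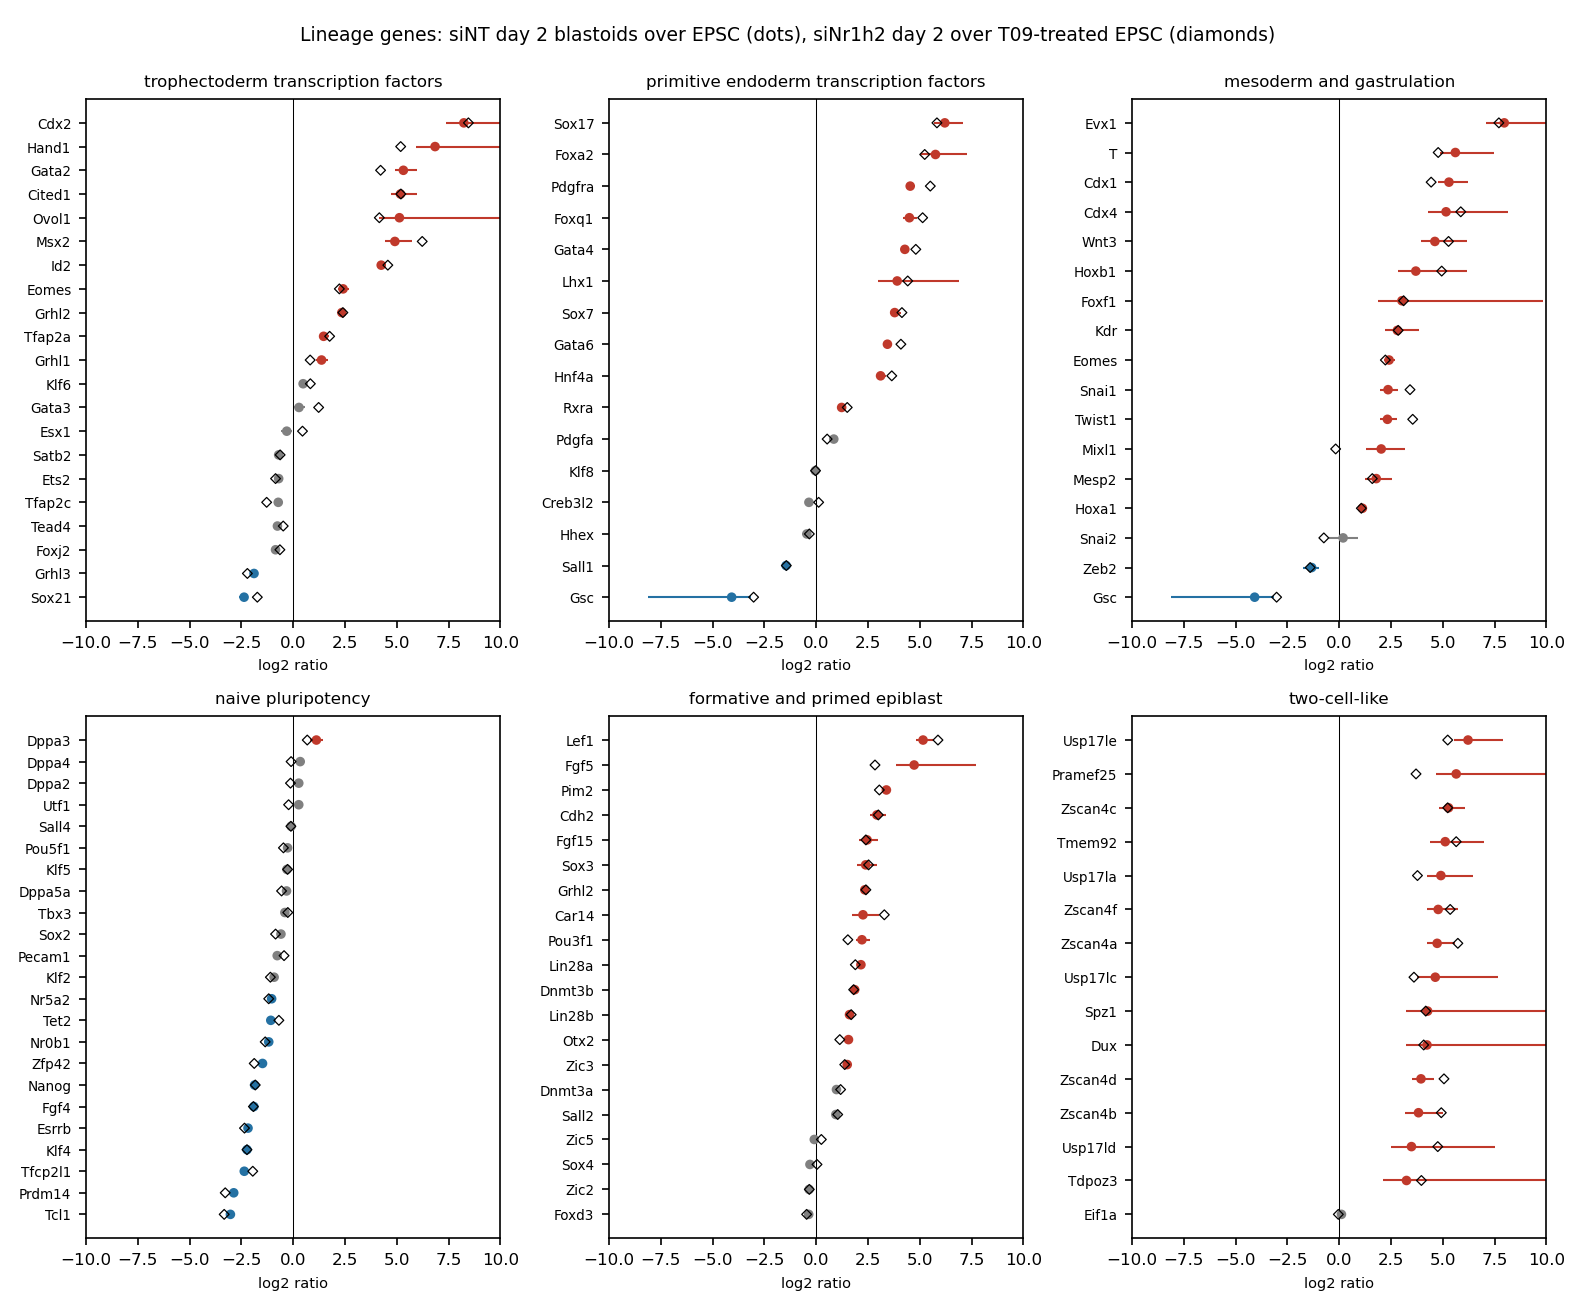
Log2 ratios of the members of 6 lineage and pluripotency lists with 20 or more counts that are reported here, drawn as in the plot of signalling genes: dots and bars are siNT day 2 blastoids over EPSC with the 95% counting interval, open diamonds the other pair. Sox17 (6.21) and Cdx2 (8.24) stand at the top of their panels, Gata3 (0.28) and Pou5f1 (-0.27) near 0, and Tcl1 (-3.03) at the foot of the naive panel.

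Pluripotency genes divided by the state they mark. Of 23 naive genes, 11 were called lower and 1 higher (median -0.92), while of 20 formative and primed genes 14 were called higher and 0 lower (median 2.01). Nanog was at 175.9 CPM in siNT_D2 and 640.2 CPM in EPSC (-1.86), Esrrb at 123 CPM against 559 CPM (-2.18), Klf4 at 36.4 CPM against 170.9 CPM (-2.23) and Prdm14 at 4.75 CPM against 35.2 CPM (-2.87). The general factors Pou5f1 (993.1 CPM against 1201 CPM, -0.27) and Sox2 (267 CPM against 403.3 CPM, -0.59) were not called. Dppa3, a germ cell and naive marker, was the member called higher (7.77 CPM against 3.56 CPM, 1.12). On the formative side Lin28a, an RNA-binding protein that blocks let-7, was at 573 CPM in siNT_D2 and 128 CPM in EPSC (2.16), Dnmt3b, a de novo DNA methyltransferase, at 410 CPM against 113 CPM (1.86), Otx2 at 62.7 CPM against 21.2 CPM (1.56) and Pou3f1 at 10.8 CPM against 2.28 CPM (2.21). Lef1, Fgf5, Cdh2 and Grhl2 are members of this list and of lists above, so the lists are not independent.

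Genes of the 2-cell embryo were higher, 14 of 15 with enough counts and 0 lower (median 4.64, and 3.44 with a prior count of 10). Zscan4c was at 25.4 CPM in siNT_D2 and 0.602 CPM in EPSC (5.28, 4.81 to 6.06), Tmem92 at 7.21 CPM against 0.157 CPM (5.12) and Usp17le at 17.4 CPM against 0.183 CPM (6.22). Dux, the factor that switches this program on, had 56 counts in siNT_D2 and 1 in EPSC (4.24, 3.23 to 11.09). Pramef25 had 100 counts against 0 and was at least 32.3-fold higher. The list's single exception was Eif1a, not called with 8940 counts in siNT_D2 and 8015 in EPSC. Copies of Zscan4 and of Usp17l are nearly the same in sequence, so the division of reads among them is uncertain and they are not separate observations. Zscan4c was at 26.4 CPM in siNr1h2_D2 and 6.42 CPM in ESC.

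Imprinted genes, expressed from 1 parental copy, leaned higher, with 14 of 24 called higher and 0 lower (median 1.25). H19, Igf2, Phlda2 and Cdkn1c (15.5 CPM against 1.39 CPM, 3.43), all called higher, lie near each other in the mouse genome, and Magel2 had 3.404 CPM against 0.105 CPM (4.47). Meg3 and Rian, maternal non-coding RNAs, were at 385 CPM against 118 CPM (1.70) and 513 CPM against 152 CPM (1.76), and Peg3, a paternal gene, was at 227 CPM against 66.0 CPM (1.78). In the other pair Meg3 was at 0.92 and Rian at 0.99, not called. Of 16 DNA methylation genes, 2 were higher and 5 lower (median -0.43): Dnmt3b and its cofactor Dnmt3l (374 CPM against 133 CPM, 1.49) were higher, and the demethylating enzyme genes Tet1 (225.7 CPM against 762.2 CPM, -1.76) and Tet2 (96.9 CPM against 204 CPM, -1.08) were lower. Dnmt1, the maintenance enzyme, was not called (335.1 CPM against 586.5 CPM, -0.81). Of 24 germline genes, 1 was higher and 5 lower (median -0.27), near the 25.8% of all tested genes called in either direction. Stra8 and Dazl, a germ cell RNA-binding protein gene (15.6 CPM against 171.3 CPM, -3.45), led the lower ones. The other pair shared 3 of the lower calls.

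Markers of other cell types were checked in both libraries. Against the pluripotency markers Pou5f1, Sox2, Nanog, Zfp42 and Esrrb, which summed to 1809 CPM in siNT_D2 and 3503 CPM in EPSC, fibroblast and blood markers were low. The summed level of 6 fibroblast markers was 6.53 CPM in siNT_D2 and 3.74 CPM in EPSC, with Postn at 0 in siNT_D2 and Col3a1 and Dcn at 0 in EPSC, and that of 4 blood and endothelium markers was 0.737 CPM in siNT_D2 and 0.497 CPM in EPSC, with Ptprc and Hba-a1 at 0 in both. Of 8 tested fibroblast genes, 3 were higher and 3 lower (median -0.66), and of 7 tested blood genes 2 were higher and 1 lower (median 0.78), led by Runx1 (27.1 CPM against 0.681 CPM, 5.21). Both medians were 0.00 with no count minimum. The neural markers Sox1, Pax6, Neurod1 and Stmn2 summed to 105.9 CPM in siNT_D2 and 282.4 CPM in EPSC. Most of each sum was Stmn2, at 97.02 CPM in siNT_D2 and 241 CPM in EPSC. Neurod1 alone was higher in siNT_D2, at 4.725 CPM against 1.571 CPM in EPSC. Of 10 tested neuroectoderm genes, 3 were higher and 6 lower (median -1.46), whereas with no count minimum 5 were higher and the median was -0.09. Sox1 (2.11 CPM against 32.8 CPM, -3.92) and Tubb3 (11.5 CPM against 146.8 CPM, -3.67) were lower, and the neurofilament genes Nefm (44.3 CPM against 0.890 CPM, 5.56) and Nefl (95.5 CPM against 3.77 CPM, 4.64) higher. ESC had 49.4 CPM of Nefm and 65.2 CPM of Nefl.

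Integrin and matrix receptor genes had 4 of 18 called higher and 6 lower (median -0.18), against 14.5% and 11.3% of all tested genes. Spp1, the secreted integrin ligand osteopontin, was at 16.5 CPM in siNT_D2 and 563.1 CPM in EPSC (-5.09), and Fn1, fibronectin, at 310 CPM against 1809 CPM (-2.55), together with its receptor subunit Itga5 (60.7 CPM against 215 CPM, -1.82). The collagen and laminin receptor subunit Itga1 was higher (19.7 CPM against 0.393 CPM, 5.48). Actin and serum response genes had 4 of 27 higher and 5 lower (median -0.26), near the 14.5% and 11.3% of all tested genes, with Acta2 at 2.13 CPM against 19.3 CPM (-3.15) and Fhl1 at 81.0 CPM against 7.86 CPM (3.36).

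Glycolysis genes moved in both directions. Of 22 glycolysis genes, 5 were called higher and 4 lower (median 0.26), against 14.5% and 11.3% of all tested genes. Ldha, which encodes the lactate dehydrogenase subunit that favours lactate, was at 1265 CPM in siNT_D2 and 463.5 CPM in EPSC (1.45, 1.42 to 1.47), while Ldhb, the other subunit, was at 52.3 CPM against 344.2 CPM (-2.72). The hexokinase genes were lower, Hk1 at 24.4 CPM against 142 CPM (-2.54) and Hk2 at 138.9 CPM against 396.3 CPM (-1.51), and the lactate exporter Slc16a3 was higher (100 CPM against 37.9 CPM, 1.40). Of 18 hypoxia genes, 2 were higher and 4 lower (median -0.04), against the same shares of all tested genes. The collagen hydroxylase genes P4ha1 (97.1 CPM against 34.4 CPM, 1.5) and P4ha2 (30.6 CPM against 6.31 CPM, 2.27) were higher, and Vegfa was lower (26.7 CPM against 78.5 CPM, -1.55). The other pair shared both higher calls and 0 of the lower ones. It had 4 of 17 hypoxia genes higher and 0 lower, with Vegfa at -0.91, not called. Of 25 respiratory chain subunit genes 0 were called, although 24 had a log2 ratio below 0 (median -0.37), with Sdhb at -0.77 and Cox5a at -0.71.

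The hypoxia-inducible factors bind ACGTG, and the glycolysis genes hold both a higher and a lower gene with that run of letters. ACGTG on either strand was present in the 300-base RefSeq promoters (GRCm38.p6) of 14 of 22 glycolysis genes and 13 of 16 hypoxia genes, against 21.8% of 27025 genes. Among glycolysis genes it was in 3 of 5 called higher, 2 of 4 called lower and 9 of 12 tested and not called. Windows of Ldha (chr7:46845599-46845723, plus strand), called higher, and Hk2 (chr6:82774616-82774704, minus strand), called lower, show a match in capitals. In Ldha the capitals cover overlapping matches on both strands, and in Hk2 the match is on the opposite strand.
Ldha: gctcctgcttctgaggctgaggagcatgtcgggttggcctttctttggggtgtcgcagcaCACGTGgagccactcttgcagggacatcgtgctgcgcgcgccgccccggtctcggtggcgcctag
Hk2: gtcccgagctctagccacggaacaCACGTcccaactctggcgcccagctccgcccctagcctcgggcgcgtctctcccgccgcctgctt
The letters alone thus stand in genes of both directions.

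The 4 lipid lists had medians from -0.29 to 0.03. Their called counts stand against 14.5% higher and 11.3% lower among all tested genes. Of 25 cholesterol synthesis and uptake genes, 3 were called higher and 0 lower (median -0.22), among them Npc1l1, a cholesterol importer gene (0.610 CPM against 0.131 CPM, 1.86). Of 22 fatty acid synthesis genes, 2 were higher and 1, Thrsp, lower (0.178 CPM against 5.13 CPM, -4.50; list median -0.05). Of 18 lipid droplet and oxidation genes, 1 was higher and 4 lower (median -0.29), with Cpt1a, the gate to mitochondrial oxidation, at 33.5 CPM in siNT_D2 and 292.9 CPM in EPSC (-3.12). Of 18 liver X receptor genes and targets, 3 were higher and 3 lower (median 0.03). Nr1h2, which encodes the receptor LXR beta, was not called at 53.9 CPM in siNT_D2 and 77.5 CPM in EPSC (-0.52, -0.61 to -0.44). The cholesterol exporter Abca1 was lower (3.404 CPM against 18.3 CPM, -2.41), and Mylip, which degrades the LDL receptor, was higher (7.04 CPM against 1.83 CPM, 1.91). The other pair, whose EPSC had the agonist, had a list median of -1.24 with Abca1 at -5.36 and Mylip at -1.73.

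Stress lists differed in their share of called genes, against 25.8% of all tested genes. Targets of p53 had 5 of 21 higher and 1 lower (median 0.55), with 18 above 0, and among them Cdkn1a, the cell cycle inhibitor p21, was at 119 CPM in siNT_D2 and 49.2 CPM in EPSC (1.27) and Pmaip1 at 48.9 CPM against 16.4 CPM (1.58). Amino acid response genes of ATF4 had 1 of 24 higher and 7 lower (median -0.70), with Trib3 at 7.39 CPM against 26.1 CPM (-1.81), Pck2 at 9.63 CPM against 50.8 CPM (-2.39) and Asns, asparagine synthetase, higher at 469 CPM against 212 CPM (1.14). Of 18 ER stress genes 0 were called. Of 14 heat shock genes 3 were higher and 0 lower, with Hspa1a at 3.58 CPM against 0.602 CPM (2.47). NRF2 genes had 1 of 16 higher, and NF-kB genes 3 of 10 higher and 1, Icam1, lower (12.5 CPM against 124.7 CPM, -3.31).

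Transfected RNA can be sensed as foreign, so RNA-sensing and RNA interference genes were looked at. Of 30 interferon and RNA-sensing genes, 17 had enough counts, with 3 higher and 4 lower (median 0.01, and -0.81 with a minimum of 100 counts). Ddx58, the RNA sensor RIG-I, was at 60.3 CPM in siNT_D2 and 6.89 CPM in EPSC (3.12, 2.95 to 3.32), Bst2 at 69.7 CPM against 8.196 CPM (3.08), and the chemokine Cxcl10 had 46 counts against 1 (3.97, 2.93 to 10.81). The lower members were Xaf1 (-6.78), Mx1 (-2.26), Parp14 (-1.94) and Stat2 (-1.18). The interferon gene Ifnb1 and the interferon targets Isg15 and Ifit1 had 0 counts in both libraries. Of 12 RNA interference genes, 1 was higher and 2 lower (median -0.15), and Ago2, the slicing Argonaute, was at 115.2 CPM against 260.1 CPM (-1.18), but at 0.20 in the other pair.

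Of 21 proliferation and mitosis genes 0 were called (median -0.39), of 23 DNA replication genes 1 was higher (median -0.33), and of 27 ribosomal protein genes 0 were called (median 0.14). Cell cycle inhibitors and D cyclins had 4 of 14 higher and 2 lower, against 14.5% and 11.3% of all tested genes. The same shares apply to the other lists of this paragraph. Ccnd2, cyclin D2, was at 23.7 CPM in siNT_D2 and 0.288 CPM in EPSC (6.13, 5.52 to 7.37), Cdkn1c, the inhibitor p57, was named above, and Cdkn1b, the inhibitor p27, was lower (28.4 CPM against 68.8 CPM, -1.28). Autophagy and lysosome genes had 2 of 24 higher and 1 lower, with Ctsl, the protease cathepsin L, at 903.4 CPM against 265.9 CPM (1.76). Histone genes had 4 of 9 higher and 1 lower on low counts, with a median of 1.00. With a minimum of 100 counts the value was -1.02, the lowest ratio among the 9. Hist1h1e had 27 counts in siNT_D2 and 0 in EPSC, at least 8.73-fold higher, and copies of these genes share sequence.

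**Figure D4:**
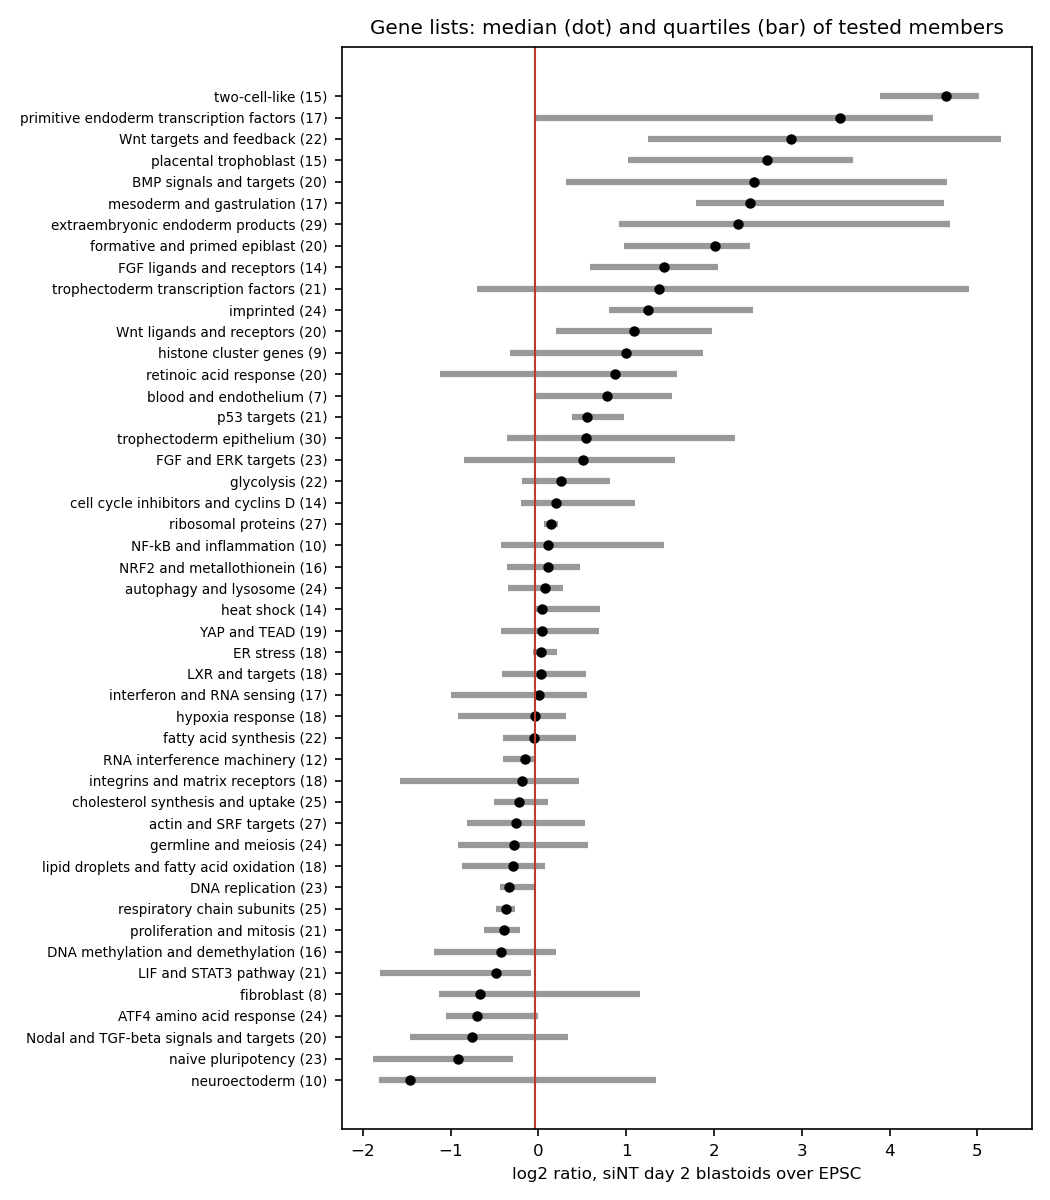
Median (dot) and quartiles (bar) of the log2 ratio of siNT day 2 blastoids over EPSC for the tested members of 47 gene lists, with the number of members in brackets and a red line at the median of all tested genes (-0.04). The 2-cell genes (4.64) and primitive endoderm factors (3.44) lie at the top, and naive pluripotency (-0.92) and neuroectoderm (-1.46) at the foot.

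**Figure D5:**
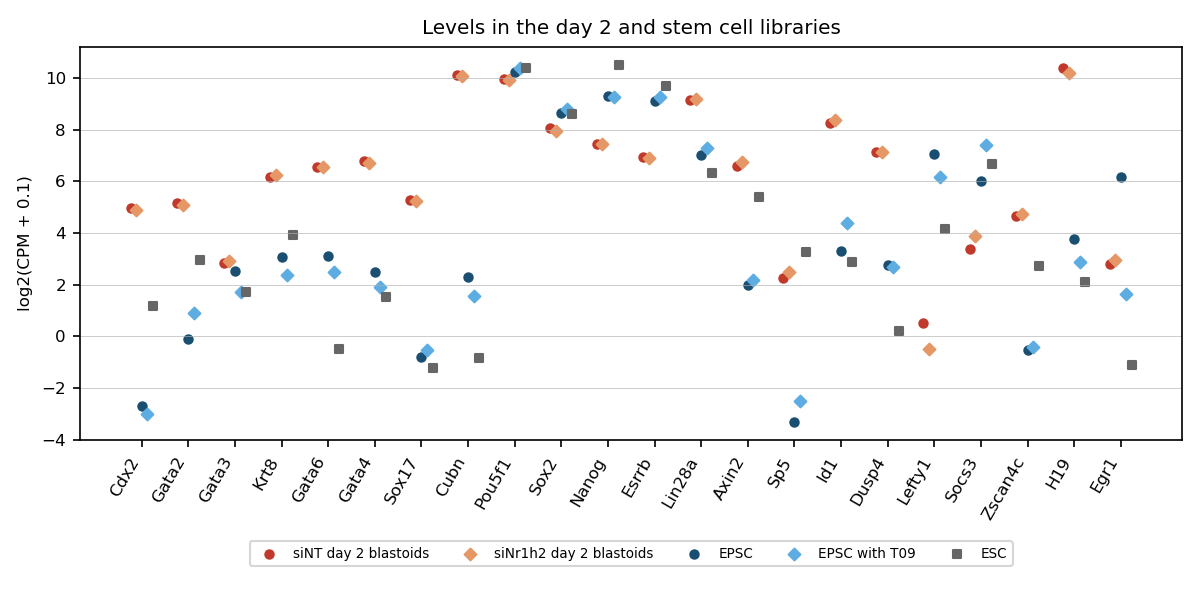
Level of 22 genes, as log2 of CPM plus 0.1, in 5 libraries of 1 sample each: siNT and siNr1h2 day 2 blastoids (red and orange), EPSC and T09-treated EPSC (dark and light blue) and ESC (grey). The day 2 libraries are furthest apart for Lefty1, the EPSC libraries differ most for Egr1 (72.2 CPM in EPSC and 3.04 CPM with T09), and ESC lies near day 2 rather than EPSC for Sp5.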

How the data were processed

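RNA was extracted with Trizol, treated with DNase and made into directional libraries, per the labels. The authors deposited 1 table of raw read counts per gene symbol, 24888 genes in 8 columns, 6481 of them with 0 counts in both libraries compared here. STAR, HTSeq and Cuffnorm are named, with build mm9, in the submitters' processing notes. Versions, roles, annotation and strand setting are not given in the sources used here, so the counts of overlapping or antisense genes are uncertain.

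Counts were scaled with TMM factors (edgeR 4.0.16, R 4.3.3) over the 8 libraries. With 1 library a side, log2 ratios carry a 95% exact Clopper-Pearson interval. Intervals and the floor of 3 counts cover counting error only, since reads lacking molecular identifiers need not be independent molecules. Where 1 library had 0 counts, that floor took its place and the fold is a lower bound. List medians did not change with such members set to their bound.

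The genes named were the 12 higher and 12 lower with 50 or more counts whose interval lay furthest from 0, up to 4 called members per list and 16 fixed genes. Predicted and unnamed genes, such as Gm, LOC and Rik symbols, were left out before the ranking by interval. Further members were named as examples after their values were seen. A few genes that the rule names are not reported here, though list counts and medians include them. The 47 lists (948 symbols, 943 matched; Zscan4e, Tcstv1, Tcstv3, Rhox5 and Hmgcs1 not analysed here) and the comparison were chosen with earlier results of these data known. The procedure was tested on simulated counts with counting noise only, with changes set in genes expected at 100 or more counts. That test cannot address culture-to-culture spread. Alternatives were other scalings, count minimums, fold thresholds, prior counts, an assumed biological coefficient of variation of 0.2, and the other pair. Python 3.11.15 with scipy 1.17.1 was used.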

Additional observations from a re-analysis of the deposited data

Results flagged for a closer look

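In all, 3 list genes were called in opposite directions by the pairs siNr1h2_D2 over T09-treated EPSC and siNT_D2 over EPSC. The difference itself was not tested, since each side is 1 library.

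Egr1, an immediate-early gene, had a log2 ratio of 1.33 in the pair with siNr1h2 and T09 and -3.38 in siNT_D2 over EPSC. Its level was 7.74 CPM in siNr1h2_D2 and 6.91 CPM in siNT_D2, against 3.04 CPM in T09-treated EPSC and 72.2 CPM in EPSC.

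Tdg, a DNA glycosylase gene of active demethylation, had 2.44 and -1.50 on low levels: 0.801 CPM in siNr1h2_D2 and 0.254 CPM in siNT_D2, against 0.0988 CPM in T09-treated EPSC and 0.812 CPM in EPSC.

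Mylip, a liver X receptor target, had -1.73 and 1.91. It was at 5.84 CPM in siNr1h2_D2 and 7.04 CPM in siNT_D2, against 19.5 CPM in T09-treated EPSC and 1.83 CPM in EPSC, and the T09 library is the one that had the receptor's agonist.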

How the results depend on the processing

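The 2107 higher and 1633 lower genes became 1230 higher with a minimum of 100 counts, 2863 lower at 1.5-fold, and 1022 higher and 587 lower at 4-fold. Other settings kept the counts within 1.5 times, from 1906 to 2936 higher and 1164 to 1995 lower: DESeq2-type (RLE) size factors, library totals, no minimum, prior counts of 0.5 and 10, an assumed variation of 0.2 and the other pair, as well as 1.5-fold for higher and a minimum of 100 counts for lower genes. RLE factors and library totals put the median of all genes at -0.00 and 0.05. The histone list median was -1.02 with a minimum of 100 counts, which leaves fewer members. That value is the lowest ratio among the 9 tested members, so the reversal does not describe the list.

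Of the called genes among 374 list and named genes, 0 changed sign under the other scalings, minimums and prior counts. These settings could hardly give another outcome, so the 0 is no check. A called gene differs at least 2-fold, and the scalings moved the median of all genes from -0.04 to -0.00 and 0.05. Minimums leave a ratio as it is, and a prior count adds the same amount to both scaled levels. In siNr1h2_D2 over T09-treated EPSC, 132 of the 374 stayed within the main pair's counting interval. Another 226 left it without a called gene changing sign, against 68 with library totals and 53 with a prior count of 10. The other 16 changed sign, and the cause was not tested. They were Fos (0.71), Egr1 (1.33), Egr2 (1.18), Fosb (0.90), Spi1 (0.67), Adm (0.67), Wnt7b (0.68), Ago2 (0.20), Snap25 (2.61), Pdgfrb (0.25), Tdg (2.44), Ndrg1 (0.46) and Hist1h1c (0.23), which were lower in siNT_D2 over EPSC, and Mylip (-1.73), Syna (-0.61) and Mixl1 (-0.17), which were higher.

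No paired analysis was possible because each group has 1 library. Without replicates, culture-to-culture spread is unknown, and a count of 0 allows a level of up to 0.0762 CPM in siNT_D2 and 0.0786 CPM in EPSC, and ratios that rest on 1 to 3 counts carry wide intervals.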

Other observations

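The main pair's ratios depended little on transcript length. Each gene's length was that of its longest protein-coding GENCODE transcript, and 94.7% of the main pair's tested genes had such a length. In 5 classes, from up to 1000 bases to over 8000 bases, the median log2 ratio of siNT_D2 over EPSC was -0.15, -0.02, -0.01, -0.07 and -0.15. In the pair of siNr1h2_D2 over T09-treated EPSC it was -0.31 in the shortest and 0.25 in the longest class.

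For some genes called higher in siNT_D2 over EPSC, the ESC level was above that of siNT_D2. Cdx1 was at 19.5 CPM in siNT_D2, 0.445 CPM in EPSC and 87.6 CPM in ESC, and Asns, with a log2 ratio of 1.14, at 469, 212 and 984 CPM.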
